A study of Mus musculus with 2 samples.

Results

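The mouse haemoglobin genes and 2 further genes of the red cell, Alas2 and Slc4a1, were followed in RNA of the embryonic cortex, 9 of the 21896 genes measured. They were taken by their gene symbols. Hba-x, Hbb-y and Hbb-bh1 are the embryonic globins, and Hba-a1, Hba-a2, Hbb-b1 and Hbb-b2 the adult globins. The study asked what the corepressor Rcor2, a partner of the histone demethylase LSD1, does in cortical neurogenesis. The ventricular and subventricular zones (VZ–SVZ) were dissected at E13.5 from C57/BL6 embryos of a cross between Rcor2fl/+NesCre mice. The control group was Rcor2fl/fl and the mutant group Rcor2cko, in which Rcor2 is deleted by Cre under the Nestin promoter, in the neural lineage. Blood cells lie outside that lineage. There was 1 library per genotype, and the number of embryos behind each is not given in the sources used here. The control genotype is labelled without NesCre, so the libraries differ in Cre as well as in Rcor2.

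Haemoglobin is built of α-like and β-like chains, each holding a haem. In the mouse, the first red cells arise in the yolk sac, circulate with nuclei and make embryonic chains, namely Hba-x (the ζ-like chain of the α cluster) and Hbb-y and Hbb-bh1 (the εy and βh1 chains of the β cluster). As these primitive cells mature they also take up adult chains, and the definitive cells that the fetal liver releases make almost purely adult haemoglobin. Around midgestation both kinds circulate, so blood of this age holds a mixture. Alas2 encodes the erythroid form of the enzyme that starts haem synthesis, and Slc4a1 encodes band 3, the anion exchanger of the red cell membrane.

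The α-like genes lie on chromosome 11 and the β-like genes on chromosome 7. The coding part of the first coding exon, in the GENCODE vM1 annotation of NCBIM37 (the assembly known as mm9), is shown because it separates embryonic from adult chains, while the copies of each adult chain cannot be separated in it. Sequences run 5′ to 3′ on the coding strand. Capitals mark the bases that differ from Hba-a1 in the α-like genes and from Hbb-b2 in the β-like genes.
Hba-a1: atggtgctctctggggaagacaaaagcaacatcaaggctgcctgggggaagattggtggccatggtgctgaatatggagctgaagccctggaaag
Hba-x: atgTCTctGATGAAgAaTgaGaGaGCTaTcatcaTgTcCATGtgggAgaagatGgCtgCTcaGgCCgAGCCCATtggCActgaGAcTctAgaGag
Hbb-b2: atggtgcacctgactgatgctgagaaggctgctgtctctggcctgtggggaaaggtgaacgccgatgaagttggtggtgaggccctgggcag
Hbb-y: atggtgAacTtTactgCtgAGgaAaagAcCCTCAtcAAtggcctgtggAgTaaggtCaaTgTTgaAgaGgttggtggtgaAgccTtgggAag
Hbb-bh1: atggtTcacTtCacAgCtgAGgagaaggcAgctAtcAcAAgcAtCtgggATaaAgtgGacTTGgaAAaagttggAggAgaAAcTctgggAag
These stretches lie at chr11:32183707-32183801 and chr11:32176664-32176758 on the plus strand, and at chr7:110962292-110962383, chr7:111001575-111001666 and chr7:110991533-110991624 on the minus strand. Hba-x differed from Hba-a1 at 45 of 95 bases. Hbb-y differed from Hbb-b2 at 26 of 92 bases and Hbb-bh1 at 29. Over the whole coding sequence Hba-x was 62.0% identical to Hba-a1, and Hbb-y and Hbb-bh1 were 74.1% and 73.9% identical to Hbb-b2. The longest run of coding bases shared without a mismatch was 18 nt for Hba-x and Hba-a1, and 22 nt for Hbb-y and Hbb-b2.

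The adult copies were close to identical. Hba-a1 and Hba-a2 differed at 1 of 429 coding bases, and the annotated Hbb-b1 and Hbb-b2 genes at 1 of 444. The 41 coding bases around each of these differences, all in the third coding exon, are shown with the differing base in capitals. Between the annotated copies it is the only coding base by which a sequenced fragment could be given to 1 of them.
Hba-a1: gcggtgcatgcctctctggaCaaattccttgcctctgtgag
Hba-a2: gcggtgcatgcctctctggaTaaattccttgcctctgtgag
Hbb-b2: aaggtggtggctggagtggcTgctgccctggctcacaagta
Hbb-b1: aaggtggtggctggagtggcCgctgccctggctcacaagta
They lie at chr11:32184323-32184363 and chr11:32197140-32197180 on the plus strand and at chr7:110961177-110961217 and chr7:110975186-110975226 on the minus strand. The longest identical coding run was 380 nt in the α pair and 416 nt in the β pair. The values of single adult genes are therefore uncertain, and their sums are the firmer quantities.

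The positions in the files add to this. In the Rcor2fl/fl library, which has 1 row per transcript, both Hba-a1 and Hba-a2 have a row at each of the 2 adult α loci. The rows at chr11:32183672-32184493 summed to 89.6 FPKM and those at chr11:32196489-32197310 to 59.8 FPKM. FPKM are fragments divided by transcript length and by library size, so levels can be compared between genes. Hba-a1 had 41.2 FPKM at the former locus and 6.51 at the latter, against 48.5 and 53.2 for Hba-a2. The names Hba-a1 and Hba-a2 thus do not stand for 1 locus each in these data. The Rcor2cko library has 1 row per gene. It lists both genes at chr11:32183672-32184493 only, each with more than 1 start site. Hbb-b1 and Hbb-b2 were both placed at chr7:110961038-110962437, which overlaps the Hbb-b2 gene of the annotation. The annotated Hbb-b1 gene, at chr7:110975048-110976610, had 0 rows in either library. The differing base shown above for Hbb-b1 thus lies outside the stretch given for both β genes. The other 5 members each overlapped their annotated gene.

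The files hold FPKM and a 95% interval for each, without counts. The FPKM of genes with 1 transcript fell on steps of whole fragments, and the steps gave scaling totals of 18841684 fragments for Rcor2fl/fl and 25479853 for Rcor2cko. Among values worth no more than 100 fragments, 99.3% of 4473 and 99.5% of 4420 lay within 0.1 of a whole number. Exact 95% intervals below come from these fragments. They are Clopper-Pearson intervals for ratios and shares, and conditional odds-ratio intervals for differences between 2 changes. They are computed without an added constant, cover counting error only, and hold for these libraries rather than for the genotypes. With 1 library per genotype no difference has a replicate check, and no test was possible. Changes are log2 ratios of (FPKM + 0.1), Rcor2cko over Rcor2fl/fl, which understate the change of low genes. A gene was compared if either library had 1 FPKM or more of it, and was counted as changed above 1.5-fold. Rcor2 itself was at 90.6 FPKM in Rcor2fl/fl and 55.7 in Rcor2cko, a log2 change of -0.70. This value is for the whole gene. The study reported no RNA in Rcor2cko cortex from the exons that Cre removes, and depletion of the Rcor2 protein. Xist, transcribed from the inactive X, was at 177 FPKM in Rcor2fl/fl and 0.109 in Rcor2cko, while the Y-linked Eif2s3y was listed at 0 and at 19.8. By these genes the Rcor2fl/fl library was female and the Rcor2cko library male. Sex and genotype therefore cannot be told apart in any change given here.

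Haemoglobin transcripts were abundant in both cortical libraries, and most of them were adult. The 7 globins summed to 525.8 FPKM in Rcor2fl/fl and 443.3 FPKM in Rcor2cko, a log2 change of -0.25 with an exact interval of -0.31 to -0.18. Combined over the genes, the file intervals overlapped, at 477 to 574 FPKM in Rcor2fl/fl and 402 to 484 in Rcor2cko. In bulk tissue, fewer red cells and less RNA per cell cannot be told apart. The adult globins held 486.3 of these FPKM in Rcor2fl/fl and 406.0 in Rcor2cko. The embryonic globins held 39.5 and 37.2. Adult over embryonic globin was 12.3 in Rcor2fl/fl and 10.9 in Rcor2cko. The plot of FPKM by library shows the members over this range.

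**Figure D1:**
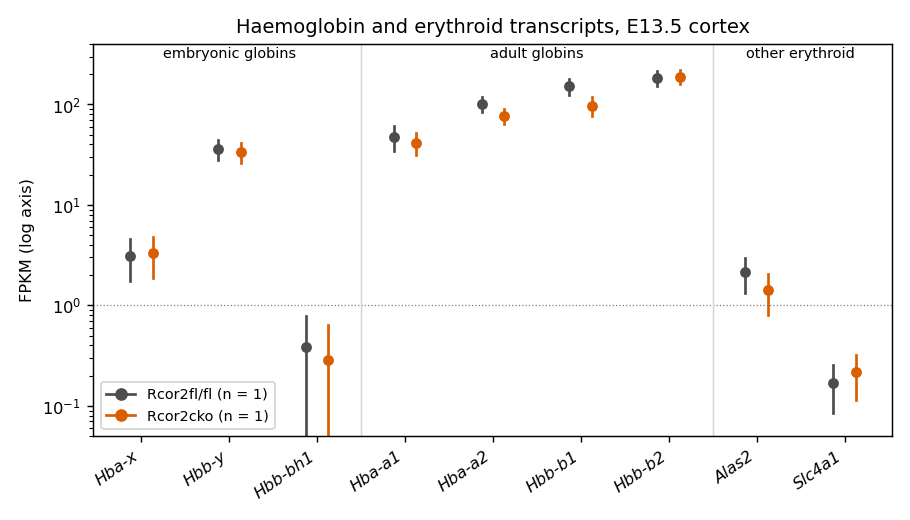
FPKM on a log axis of the 9 members in the Rcor2fl/fl (grey) and the Rcor2cko (orange) library, 1 of each. Points are the values, lines the 95% FPKM intervals of the files (those of Hbb-bh1 reach 0, below the axis), and the dotted line is 1 FPKM. The 4 adult globins lie between 41.7 and 189.9 FPKM, Hbb-y at 36.0 and 33.6 FPKM, and Hbb-bh1 and Slc4a1 below 1 FPKM. Hbb-b1 alone has intervals that do not overlap.

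Of the embryonic globins, Hbb-y carried nearly all of the signal. It was at 36.0 FPKM in Rcor2fl/fl (file interval 28.0 to 43.9) and 33.6 FPKM in Rcor2cko (25.9 to 41.3), from 288 and 358 fragments. The log2 change was -0.10, with an exact interval of -0.33 to 0.13 that includes 0. Hba-x, the only embryonic α-like chain, was at 3.14 FPKM in Rcor2fl/fl and 3.34 in Rcor2cko, from 24 and 34 fragments. Its log2 change of 0.09 had an exact interval of -0.70 to 0.91, which includes a change of 1.5-fold either way. Hbb-bh1 had 3 fragments in each library, 0.383 and 0.288 FPKM, and was below the filter. In both libraries it was thus about 1% of the embryonic β-like FPKM, at 1.05% and 0.849%. Hbb-y made up 91.1% of embryonic globin FPKM in Rcor2fl/fl and 90.2% in Rcor2cko, and exceeded Hba-x by 11.5 times and 10.1 times. Summed, the embryonic globins changed by -0.08 on the log2 scale, with an exact interval of -0.30 to 0.13.

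With the rows of each gene summed, the adult α globins were lower in the Rcor2cko library. With the highest row of each gene in place of the sum, which lowers the Rcor2fl/fl values only, Hba-a1 turned to a log2 change of 0.02 and Hba-a2 to 0.53. Hba-a1 was at 47.7 FPKM in Rcor2fl/fl and 41.7 in Rcor2cko, a log2 change of -0.19 whose exact interval, -0.41 to 0.03, includes 0. Hba-a2 was at 101.7 FPKM in Rcor2fl/fl and 76.9 in Rcor2cko, a log2 change of -0.40 with an exact interval of -0.55 to -0.25. The file intervals of both genes overlapped between the libraries. Together the pair was at 149.4 FPKM in Rcor2fl/fl and 118.7 in Rcor2cko, which is -0.33 on the log2 scale (exact interval -0.46 to -0.21). Fragments of both genes were estimated from more than 1 row or transcript, so these intervals leave out the error of dividing fragments between copies. The change of the pair, and of every sum that holds it, also assumes that the Rcor2cko rows cover both adult α loci. At chr11:32183672-32184493 alone, the pair was at 89.6 FPKM in Rcor2fl/fl.

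The β genes were the highest members, and parted from each other. Hbb-b2 was at 184.1 FPKM in Rcor2fl/fl and 189.9 in Rcor2cko, ranks 204 and 189 of all genes, with a log2 change of 0.04 and an exact interval of -0.05 to 0.14. Hbb-b1 was at 152.9 FPKM in Rcor2fl/fl (file interval 124 to 181) and 97.5 in Rcor2cko (76.1 to 119). Its log2 change of -0.65, 1.57-fold lower, was past the fold threshold. The exact interval, from estimated fragments, was -0.77 to -0.53. It lay below 0 but included the threshold of 1.5-fold lower. Hbb-b1 was the only one of the 7 members compared to pass, against 5.54% of 11777 genes past the threshold in either direction and 1.76% in the lower direction. Since both β genes were counted at 1 locus, the values also give how its fragments were divided. Hbb-b1 took 45.4% of the pair's FPKM in Rcor2fl/fl and 33.9% in Rcor2cko. The pair as a whole was at 337.0 FPKM in Rcor2fl/fl and 287.3 in Rcor2cko, which is -0.23 on the log2 scale (exact interval -0.31 to -0.15), and did not pass the threshold. Counted as 1 gene per near-identical pair, 0 members passed.

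**Figure D2:**
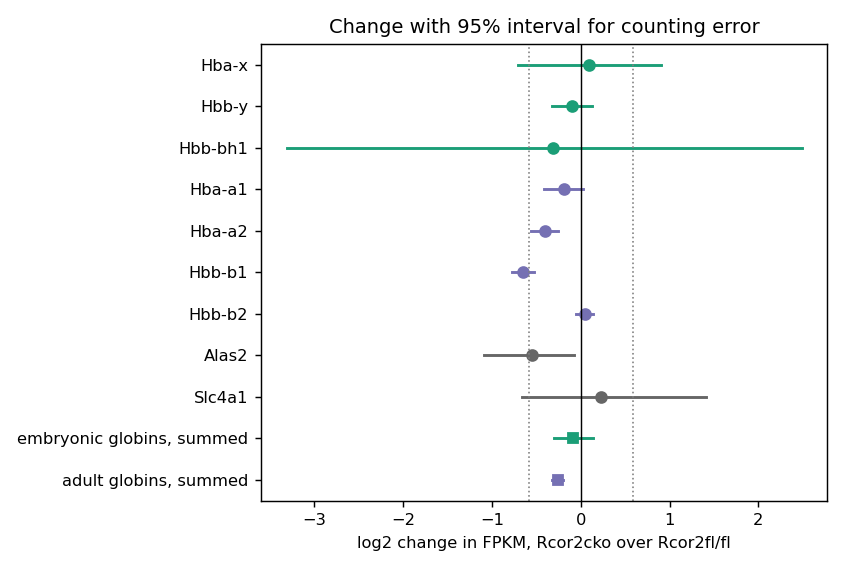
Log2 change of FPKM + 0.1, Rcor2cko over Rcor2fl/fl, for the 9 members and both summed groups. Lines are exact 95% intervals for counting error, dotted lines mark 1.5-fold, green marks embryonic and violet adult globins, and grey marks Alas2 and Slc4a1. Hbb-b1 lies past the lower dotted line at -0.65, and its interval, -0.77 to -0.53, crosses that line. The interval of the summed adult globins, -0.32 to -0.20, lies below 0, and that of the summed embryonic globins, -0.30 to 0.13, includes 0.

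Between the embryonic and the adult class the libraries differed little. Adult globins summed changed by -0.26 on the log2 scale, with an exact interval of -0.32 to -0.20, and embryonic globins by -0.08. The combined file intervals of the adult sum overlapped, at 438 to 534 FPKM in Rcor2fl/fl and 366 to 447 in Rcor2cko. The embryonic change exceeded the adult one by 0.18, with an exact interval of -0.05 to 0.41 that includes 0. A scaling of the whole library cancels in this difference. Within the α-like genes, Hba-x exceeded the adult pair by 0.42, with an interval of -0.38 to 1.25. Within the β-like genes, Hbb-y exceeded the adult pair by 0.13, with an interval of -0.10 to 0.38. A shift between embryonic and adult globins was therefore not detected in either cluster. The α interval includes a 1.5-fold rise of embryonic over adult globins, and the β interval does not.

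As shares, embryonic globins were 7.51% of globin FPKM in Rcor2fl/fl and 8.40% in Rcor2cko. In fragments they were 7.80% with an exact interval of 6.99% to 8.67%, and 8.74% with an interval of 7.93% to 9.60%, which overlap. Embryonic chains were a smaller part of the α-like than of the β-like transcripts. Hba-x was 2.06% of the α-like FPKM in Rcor2fl/fl and 2.74% in Rcor2cko, whereas Hbb-y and Hbb-bh1 were 9.74% and 10.6% of the β-like FPKM. In fragments of Rcor2fl/fl the exact intervals of these shares, 1.46% to 3.35% and 8.73% to 10.9%, did not overlap, and neither did the corresponding intervals of Rcor2cko. The α-like genes reached 0.409 of the β-like FPKM in Rcor2fl/fl and 0.380 in Rcor2cko. All adult β values came from 1 locus, with 0 rows over the annotated Hbb-b1 gene, whereas both adult α loci had rows in Rcor2fl/fl. The effect of this on the shares, and on the α over β and adult over embryonic ratios, was not tested. The exact intervals do not cover it.

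**Figure D3:**
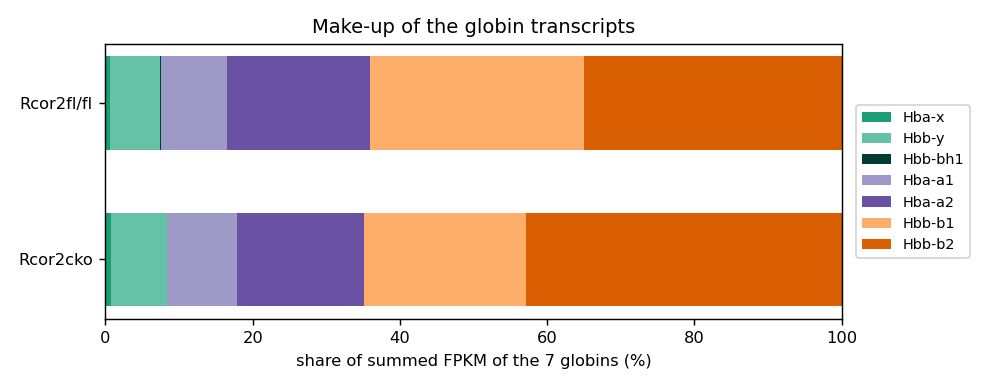
Share of the summed FPKM of the 7 globins, in percent, taken by each gene in the Rcor2fl/fl (upper bar) and the Rcor2cko (lower bar) library. The embryonic genes (green shades, left) take 7.51% and 8.40%, with Hbb-bh1 too small to see well. The border between Hbb-b1 and Hbb-b2 (orange shades) moves to the left in Rcor2cko, where Hbb-b1 takes 33.9% of the pair in place of 45.4%.

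Alas2 and Slc4a1 were low beside the globins. Alas2, at chrX:146981960-147005165, was at 2.16 FPKM in Rcor2fl/fl (file interval 1.33 to 2.99) and 1.44 in Rcor2cko (0.811 to 2.07), from an estimated 72 and 65 fragments. The log2 change was -0.55, short of the threshold, with an exact interval of -1.09 to -0.08. Alas2 is X-linked, and the 411 X-linked genes compared had a median change of 0.02. The part that the difference in Xist had in the Alas2 value was not tested. The 7 globins together exceeded Alas2 by 244 times in Rcor2fl/fl and 308 times in Rcor2cko. Slc4a1, at chr11:102210134-102226595, had 14 fragments in Rcor2fl/fl and 24 in Rcor2cko, or 0.171 and 0.217 FPKM, and was below the filter.

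Of the 7 members compared, 5 values were lower and 2 higher in Rcor2cko, with near-identical copies counted singly. Across all 9 members the file intervals overlapped for 8. The 1 member without overlap, Hbb-b1, stands beside 3.47% of all genes compared. The 7 that were compared had a median log2 change of -0.19, beside -0.03 over all 11777 genes compared, whose SD was 0.45. Of those genes 10.2% had a change as low as the summed adult globins or lower, 38.1% as low as the summed embryonic globins, and 1.38% as low as Hbb-b1. The 5 genes of at least 5 FPKM outside the lists whose change lay nearest to that of the 7 globins were 4922501C03Rik, Aprt, Ldlrad3, Ftsj1 and Adipor1. This likeness rests on 2 libraries, and 147 of 8684 genes were within 0.01 of the globin value.

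**Figure D4:**
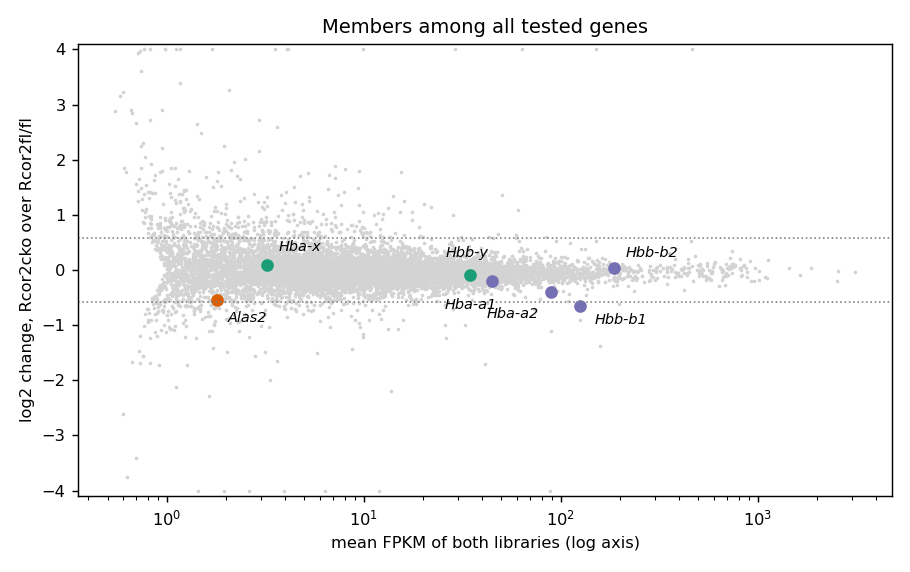
Log2 change against mean FPKM of both libraries (log axis) for the 11777 genes compared (light grey), with the 7 members among them in green (embryonic globins), violet (adult globins) and orange (Alas2). The 22 genes beyond a log2 change of 4 either way are drawn at the edge, and dotted lines mark 1.5-fold. The adult globins lie to the right, with Hbb-b1 past the lower line and Hbb-b2 at 0.04.

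Genes that red cells and their precursors use were next examined as lists, together with a list of 7 other globins that includes Mb, Ngb and Cygb, which act outside red cells. Of 78 genes on these 7 lists, 76 were in the files and 44 were compared. Of these, 1 passed the threshold upward and 0 downward, beside 3.79% and 1.76% of all genes, and the median change was -0.08. Among the erythroid transcription factors 3 of 10 were compared and 0 passed. These were Ldb1, a bridging factor of enhancer loops, at 101 and 92.9 FPKM, its partner Lmo2 at 4.70 and 3.99, and the corepressor Cbfa2t3 at 4.07 and 3.88, given for Rcor2fl/fl first. Gata1, the master regulator of the lineage, had 1 fragment in each library, and Klf1, the activator of adult β-globin, had 6 and 10. Of the markers fixed for erythroid precursors, among them Gata1, Klf1, Tal1 and Epor, all 7 in the files were below the filter in both libraries, between 0.00646 and 0.294 FPKM.

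Regulators of the switch from embryonic or fetal to adult globin include LSD1 and the corepressor Rcor1, a homologue of Rcor2. Of 14 such genes, 13 were compared and 0 passed, with a median of -0.10. Bcl11a, a repressor of embryonic and fetal globin, was at 84.2 and 70.5 FPKM, or -0.25 on the log2 scale. Hdac2, a histone deacetylase, was at 154 and 158 FPKM, and Kdm1a, which encodes LSD1, at 83.7 and 81.1 FPKM. Neither of these reached a log2 change of 0.1 in size. In bulk tissue these values, like that of Ldb1 above, cannot be assigned to red cells or to cortical cells. The markers of erythroid precursors were below the filter in both libraries.

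Haem synthesis also runs outside red cells, where Alas1 in place of Alas2 encodes the first enzyme. All 10 genes listed for this path, Alas1 among them, were compared, 0 passed, and the median was -0.15. Alas1 was at 10.4 FPKM in both libraries. Urod, a decarboxylase of the porphyrin path, was at 23.2 and 18.2 FPKM, or -0.35 on the log2 scale, and Ppox, a later enzyme, at 12.6 and 13.1. Slc25a38, the mitochondrial carrier that feeds the first step with glycine, changed by -0.21 on the log2 scale. Of 7 genes of iron uptake 5 were compared and 0 passed. Slc25a39, a mitochondrial carrier, was at 25.4 and 18.9 FPKM, the transferrin receptor gene Tfrc at 15.3 and 17.1, and Ireb2, a sensor of iron, at 36.8 and 37.7.

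Of 17 genes of the red cell membrane 7 were compared. Among the genes compared on the erythroid lists, Aqp1 was the single one past the threshold. Aqp1, a water channel of red cells that the choroid plexus also makes in quantity, was at 0.352 FPKM from 17 fragments in Rcor2fl/fl and 1.40 from 91 in Rcor2cko, a log2 change of 1.73. Ttr, which marks the choroid plexus, was listed at 0 in Rcor2fl/fl and was at 57.8 FPKM in Rcor2cko. The part of choroid plexus RNA in the Aqp1 value was not tested. Rhag and Icam4 were at 0 in both libraries, while Epb4.1 and Add2, which encode parts of the membrane skeleton that neurons share, were at 46.0 and 43.4 FPKM and at 41.8 in both. Of 12 further erythroid genes in the files 5 were compared and 0 passed, among them Prdx2, a peroxidase abundant in red cells and neurons, at 607 and 540 FPKM. Cat, catalase, was at 24.4 and 22.4 FPKM, and Bpgm, which makes the diphosphoglycerate that tunes oxygen release, at 10.3 and 12.7.

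**Figure D5:**
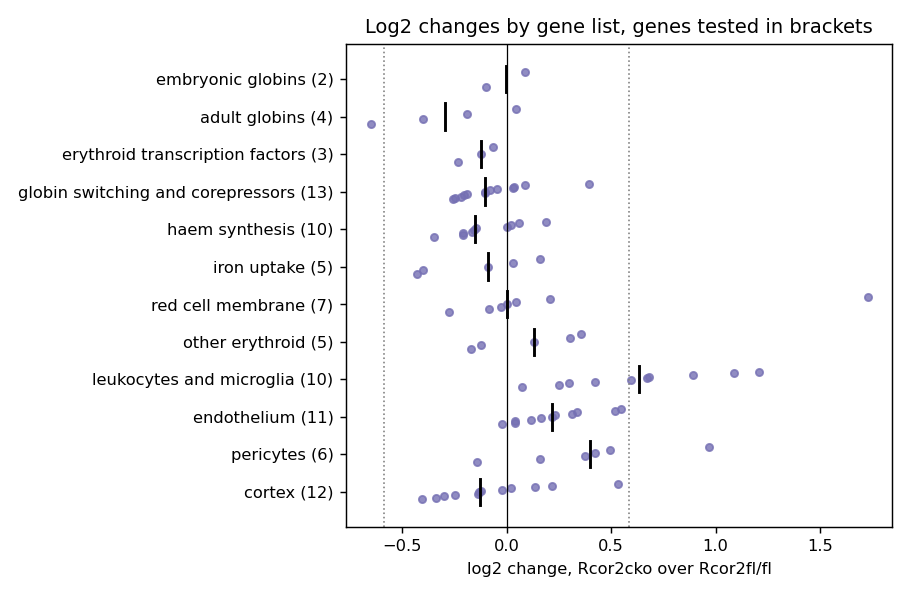
Log2 changes, Rcor2cko over Rcor2fl/fl, of the genes compared on each list, 1 point per gene, with the number of genes in brackets and the median as a black bar. Dotted lines mark 1.5-fold. On the erythroid lists Aqp1 alone, at 1.73, lies past a line, Hbb-b1 alone lies past the lower one among the adult globins, and 6 genes of leukocytes and microglia and 1 of pericytes lie past the upper line.

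Markers of leukocytes, endothelium and pericytes had median changes above 0, and the adult globins a summed change below it. Of 14 genes of leukocytes and microglia 10 were compared, 6 passed upward and 0 downward, beside 3.79% of all genes upward, with a median of 0.64 and a summed level of 24.4 FPKM in Rcor2fl/fl and 37.1 in Rcor2cko. The file intervals of the 6 genes overlapped between the libraries except for Csf1r, at 2.67 and 4.32 FPKM. Their exact intervals, for counting error only, all lay above 0. These were 0.44 to 0.95 for Csf1r, 0.30 to 2.01 for Tyrobp and 0.36 to 1.51 for C1qa. For C1qc the interval was 0.18 to 1.05, for Fcgr3 0.05 to 1.44 and for Lyz2 0.35 to 2.38. The largest changes were in Lyz2, which encodes a lysozyme of myeloid cells, at 0.738 and 1.83 FPKM, and Tyrobp, a signalling adaptor, at 2.43 and 5.27. The complement chains of microglia had the highest FPKM of the list, C1qb at 4.59 and 5.48 and C1qc at 4.14 and 6.30. The panleukocyte gene Ptprc was below the filter in both libraries. Of 12 endothelial genes 11 were compared, 0 passed, the median was 0.22, and the list summed to 40.0 and 44.6 FPKM, led by Cldn5, a tight junction gene, at 12.4 and 12.7. Of 8 pericyte genes 6 were compared, the median was 0.40, and the list summed to 23.8 and 28.1 FPKM. Higd1b alone passed, upward at 0.590 and 1.25 FPKM, from 6 and 17 fragments with an exact interval of -0.32 to 2.72 that includes 0. Notch3 changed by -0.14 on the log2 scale, and Anpep, below the filter, by -0.99. Of 10 genes of platelets and megakaryocytes only Gp1bb was compared, at 4.36 and 4.07 FPKM, and the list summed to 6.03 and 6.48. The 12 markers of the dissected cortex were all present, and 0 passed. Their median change was -0.13 and 8 were lower, while their sum was 1818 and 1902 FPKM, with Fabp7 at 372 and 539. The part of differing vessel or blood content in the globin values was not tested.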

How the data were processed

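RNA of 1 Rcor2fl/fl and 1 Rcor2cko library was isolated on RNeasy columns and prepared with a stranded mRNA kit. The authors deposited FPKM values with 95% FPKM intervals. Per the submitters' processing notes these were made with TopHat 1.3.3 and Cufflinks 1.2.0 on mm9, while the methods of the study name another TopHat version. The Rcor2fl/fl table lists 27641 transcripts and the Rcor2cko one 21896 genes. Rows with a status other than OK, 281 and 93, were kept.

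Rows were summed per gene, and the half-widths of their intervals were added in quadrature. Libraries were compared as log2 ratios of (FPKM + 0.1), with no further normalization. Genes reaching 1 FPKM in either library were compared, and called above 1.5-fold. Fragments were recovered from FPKM, length and a fitted offset of 194 and 201 nt for transcripts of at least 450 nt. For genes with several rows and for Hbb-b1 and Hbb-b2 they are estimates. Simulated data, with 200 genes changed by known folds, were used to check the scripts. The work used Python 3.11.15, numpy 2.4.6, pandas 2.3.3, scipy 1.17.1 and matplotlib 3.10.9. Sequences and coordinates, counted from 1, were taken from GENCODE vM1 (NCBIM37).

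Members and gene lists were chosen with earlier results of these data known. Named were the 9 members, and in each list up to 5 genes past 1.5-fold and up to 3 with the highest FPKM, as well as the 5 genes nearest to the globin change. The genes that locate a result at or near 0, the checks (Rcor2, Xist, Eif2s3y, Ttr), Anpep, and the genes of the closing section were named after their values were seen. Older symbols were matched through RefSeq accessions. Hbb-bh0 and Ahsp were not analysed here. The 16 alternatives covered pseudocount, scaling, rows, status, filter, fold, intervals, fragments and near-identical copies.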

Additional observations from a re-analysis of the deposited data

How the results depend on the processing

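Embryonic globins changed by -0.11 to -0.02 on the log2 scale over 10 alternatives and adult globins by -0.29 to -0.09, and their difference ranged from 0.00 to 0.18 over 6. The adult value nearest 0, -0.087, came from taking the highest row of each gene in place of the sum, which leaves out rows of the Rcor2fl/fl library only. That choice also gave an embryonic share of 8.39% in Rcor2fl/fl, turned Hba-a1 to 0.02 and Hba-a2 to 0.53, and put 3 erythroid list genes past 1.5-fold upward. Hbb-b1 stayed past the threshold except above 2-fold and with near-identical copies taken as 1 gene, where 0 members passed. Its log2 change was -0.67 to -0.59 over 10 alternatives, at its smallest barely past 1.5-fold. By fragments without a pseudocount Alas2, at -0.59, passed as well. Without a filter 8 erythroid list genes passed upward and 1 downward, and 0 passed upward with at least 5 FPKM in 1 library or 1 FPKM in both. The 8 included Spnb1, from 98 and 214 fragments (exact interval 0.34 to 1.05), and Ermap, from 4 and 21 (0.39 to 3.96). Ikzf1, at 0.192 and 0.633 FPKM, was also among them, with file intervals that did not overlap. The exact intervals of Tspo2 and Trim10, also among the 8, included 0. Of all genes, 446 passed upward and 207 downward, against 1287 and 672 with no filter, 139 and 69 if 5 FPKM were asked of 1 library, 262 and 128 if 1 FPKM was asked of both, 243 and 100 with a pseudocount of 1, 162 and 62 above 2-fold, and 220 and 81 with non-overlapping file intervals. By highest rows 1214 passed upward. No paired analysis was possible because each genotype has a single library, and none could be left out. Depth limits Hba-x, Hbb-bh1 and Slc4a1, with at most 34 fragments in a library.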

Other observations

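Most other members of the globin family were at or near 0. Hbq1 and F830116E18Rik, the θ-like genes of the α cluster, had 0 and 6 fragments in Rcor2fl/fl and 1 and 2 in Rcor2cko. Gm5736, a further β-like gene (Hbb-bh2), had 0 and 1. Of the globins outside red cells, myoglobin (Mb) was at 0 in both libraries and neuroglobin (Ngb) had 1 and 3 fragments. Cytoglobin (Cygb), made by vessel-associated cells among others, was at 6.81 FPKM in Rcor2fl/fl and 6.91 in Rcor2cko, above Hba-x in both.

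Of the genes around the clusters, taken by position, those that reached 1 FPKM changed by less than 1.5-fold. In the α cluster Nprl3, whose introns hold the main α-globin enhancers, was at 10.6 FPKM in Rcor2fl/fl and 9.78 in Rcor2cko, with overlapping file intervals. Mpg was at 8.38 and 8.11 FPKM, Rhbdf1 at 3.21 and 3.28, and Snrnp25 at 13.2 and 11.1, a change of -0.25 beside -0.26 for the summed adult globins. Sh3pxd2b changed by 0.05 on the log2 scale. In the window around the β cluster, 13 of 13 olfactory receptor genes were listed at 0 in both libraries, whereas Hbb-y and the adult β genes within the same stretch were between 33.6 and 189.9 FPKM.

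Slc25a39 and Slc25a37 were the lowest changes among the 5 iron genes compared. Slc25a39 had 703 fragments in each library, which the larger total of Rcor2cko turned into a log2 change of -0.43. Slc25a37, the mitochondrial iron importer known for its use in erythroid cells, was at 2.78 and 2.08 FPKM, or -0.40 on the log2 scale. The cause of these values was not tested.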
